A study of Mus musculus with 7 samples.

Results

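Genes of the lipid droplet coat and of droplet lipolysis were examined in the livers of 7 male C57BL/6 mice fed the CDAHFD, a choline-deficient, amino acid-defined, high-fat diet that induces steatohepatitis. The 10 genes were taken by name from the 23347 genes of the liver count table: the perilipins *Plin2*, *Plin3*, *Plin4* and *Plin5*, the CIDE genes *Cidea*, *Cideb* and *Cidec*, the patatin-like lipases *Pnpla2* and *Pnpla3*, and the lipase inhibitor *G0s2*. All 10 passed the filter on low counts and were among the 15179 genes tested. The comparison asked how the droplet genes of steatotic liver differed between mice labelled *B4galt1* hep-/- (n = 3) and *B4galt1* flox/flox littermates (n = 4), each mouse giving 1 RNA-seq library. Both groups carried *B4galt1*, which encodes a galactosyltransferase of the Golgi, flanked by recombination sites, and only the hep-/- mice also carried Cre recombinase under the albumin promoter, which is active in hepatocytes. The flox/flox controls were littermates without Cre and are called WT in the sample labels. Mice entered the diet at 6 to 8 weeks of age and stayed on it for 15 weeks. Whole liver was sequenced, so transcripts of cells in which the promoter is silent are included.

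A lipid droplet is a core of triglycerides and sterol esters wrapped in a single layer of phospholipid, and it is the store that fills hepatocytes in steatosis. Perilipins coat this surface and limit the access of lipases. CIDE proteins gather at contact sites between droplets and pass lipid from the smaller to the larger one. Adipose triglyceride lipase, the product of *Pnpla2*, starts the hydrolysis of stored triglyceride, and G0S2 binds and inhibits it.

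Of the 10 genes, 3 passed the threshold, an adjusted p-value under 0.05 (edgeR quasi-likelihood test, Benjamini-Hochberg adjustment over all tested genes) and an absolute log2 fold change over 0.58. *Plin2* and *Plin3* were lower and *Plin4* was higher in the libraries labelled *B4galt1* hep-/-. Over all tested genes 15.8% passed, 7.83% lower and 8.00% higher, which is the background against which 3 of 10 is read. The values of the groups did not overlap for 4 of the 10 genes, the same 3 and *Pnpla2*, while 28.6% of all tested genes had groups that did not overlap. The median log2 fold change was -0.03 over the 10 genes and 0.02 over all tested genes. Without replicate 3 labelled hep-/-, in which the normalised level of *B4galt1* was not reduced, 2 genes passed, *Plin2* and *Plin3*. Only 1 gene, *Plin2*, passed without flox/flox replicate 3 or labelled replicate 2. In edgeR without flox/flox replicate 2 the count was 0, with 5 of the 10 genes at an unadjusted p under 0.05 against 6 in the full set of libraries.

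**Figure D1:**
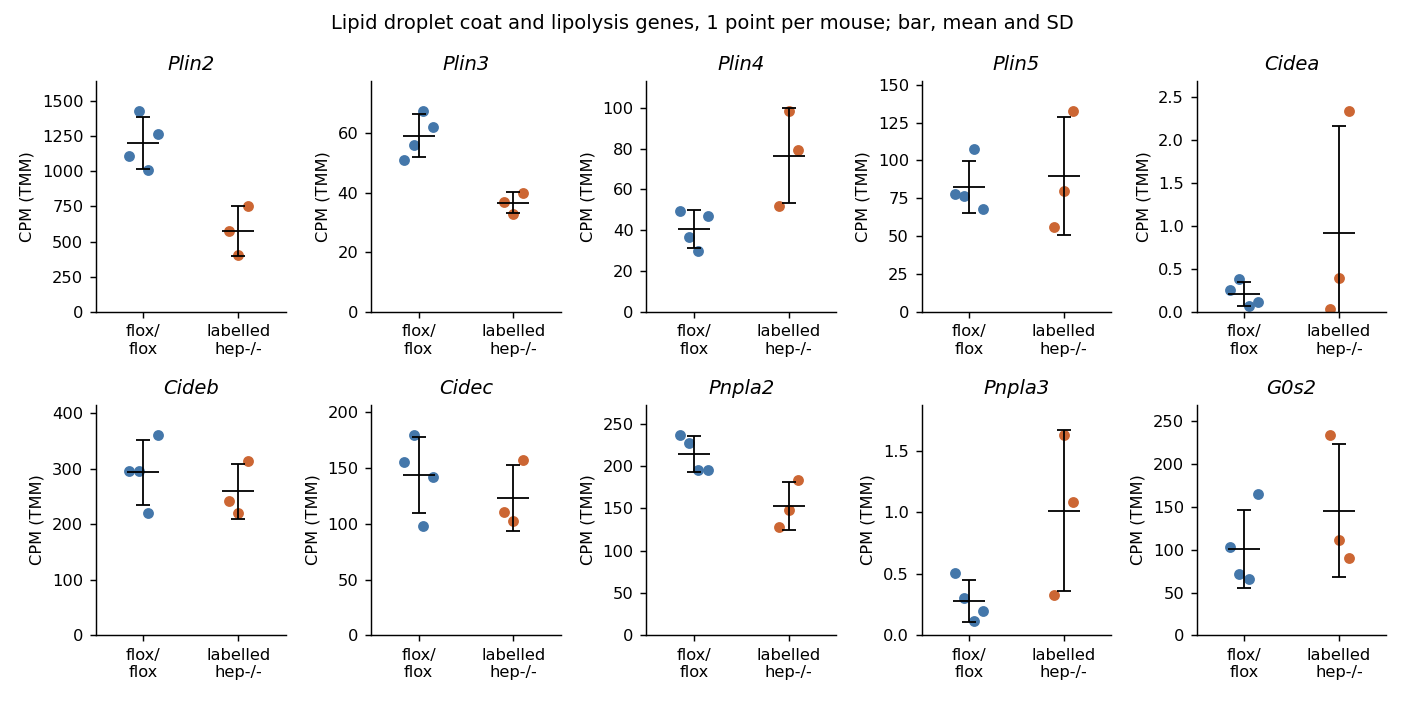
Normalised level in CPM (counts scaled to library size by TMM, linear axes from 0) of each gene in the 4 flox/flox livers (blue) and the 3 livers labelled hep-/- (orange), 1 point per mouse, with the mean as a long bar and the SD as whiskers (the lower whisker of *Cidea* runs below 0 and is clipped). The groups are apart for *Plin2*, *Plin3*, *Plin4* and *Pnpla2* and overlap for the other genes.

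The targeted gene was read first as a check of the labels. *B4galt1* was between 48.7 and 53.0 CPM in the flox/flox livers and at 28.4, 23.9 and 53.7 CPM in replicates 1 to 3 labelled hep-/-, with a log2 fold change of -0.52 and an adjusted p of 0.181 (edgeR, Benjamini-Hochberg). Replicate 3 labelled hep-/- was therefore as high as the controls in CPM, and without it the log2 fold change was -0.96 with an adjusted p of 0.0139. The deposited FPKM values are scaled by library total and not by TMM. There this replicate was at 11.9, just below the controls at 12.2 to 14.0, with labelled replicates 1 and 2 at 6.47 and 6.52. Total counts ranged from 37838654 to 39668509 in flox/flox libraries and from 30608271 to 34586588 in libraries labelled hep-/-. Mitochondrially encoded transcripts took 3.88% to 8.00% of counts in the former and 14.4% to 22.6% in the latter. None of the 8 hepatocyte markers passed the threshold, while 15.8% of all tested genes did. Their summed level, mostly *Alb*, was 80931 to 119812 CPM in flox/flox livers and 95218 to 150756 CPM in livers labelled hep-/-. Single markers went both ways. The log2 fold changes were -0.85 for *Cps1*, -0.56 for *Apob* and -0.52 for *Ass1*. They were 0.70 for *Apoa1*, whose groups were apart, 0.43 for *Ttr*, 0.29 for *Alb*, 0.25 for *Tat* and 0.12 for *Hnf4a*.

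Promoter sequence is shown for the 3 perilipin genes that passed, as the 250 bases before each transcription start site, 5′ to 3′ on the gene's strand, from RefSeq on GRCm38.p6, because these genes of 1 family moved in opposite directions. Windows were found for 9 of the 10 genes. Capitals mark matches on either strand to AGGTCANAGGTCA (the PPAR response element), AGGTCA (the nuclear receptor hexamer, which lies inside that element), CACGTG (the E-box), GGGCGG (the GC box) or TATAAA (the TATA box). The windows are chr4:86670060-86670309 for *Plin2*, chr17:56290512-56290761 for *Plin3* and chr17:56109783-56110032 for *Plin4*, all on the minus strand.
Plin2: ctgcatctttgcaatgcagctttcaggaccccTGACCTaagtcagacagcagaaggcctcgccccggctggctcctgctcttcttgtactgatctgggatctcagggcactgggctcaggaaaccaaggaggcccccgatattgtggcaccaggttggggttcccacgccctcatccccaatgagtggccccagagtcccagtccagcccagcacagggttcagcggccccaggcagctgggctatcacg
Plin3: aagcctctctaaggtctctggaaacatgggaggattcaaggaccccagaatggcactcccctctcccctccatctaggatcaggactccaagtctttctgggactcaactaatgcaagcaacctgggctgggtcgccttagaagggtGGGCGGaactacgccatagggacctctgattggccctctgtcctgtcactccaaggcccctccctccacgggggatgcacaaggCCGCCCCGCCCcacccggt
Plin4: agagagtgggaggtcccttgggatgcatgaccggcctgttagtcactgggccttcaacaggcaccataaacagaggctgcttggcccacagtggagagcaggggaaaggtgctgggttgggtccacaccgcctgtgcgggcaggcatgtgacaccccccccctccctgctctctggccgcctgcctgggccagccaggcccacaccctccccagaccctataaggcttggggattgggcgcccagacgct
The *Plin2* window held 1 nuclear receptor hexamer, starting at position -218 from the start site, and 14.0% of the 32851 windows of this length in the RefSeq table held at least 1. The *Plin3* window held 3 GC boxes, of which the last 2 overlap by 1 base, and 32.7% of all windows held a GC box. The *Plin4* window held none of the letters searched. *Plin5*, which did not pass, has 2 windows in the table, and these held a nuclear receptor hexamer and GC boxes. The E-box was found in 6.02% of all windows and the TATA box in 12.4%. The full PPAR element occurred in 0.0335% of all windows and in none of these 3, which says only that these letters are not in the bases shown.

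*Plin2* encodes perilipin 2, the main droplet coat protein of hepatocytes, and had the highest count level of the 10 genes, without regard to length, at rank 112 of 15179 tested genes by mean CPM over the 7 libraries. Its normalised level was 1109, 1429, 1006 and 1264 CPM in flox/flox replicates 1 to 4. It was 572, 402 and 756 CPM in replicates 1 to 3 labelled hep-/-. Every labelled hep-/- liver was below every control, with replicate 2 the lowest and replicate 3 the nearest to the controls. The group means were 1202 ± 185 (SD, n = 4) in the controls and 577 ± 177 CPM (SD, n = 3) in the labelled group, a log2 fold change of -1.06 (SE 0.26, 95% interval -1.62 to -0.50, adjusted p = 0.0210 by edgeR with Benjamini-Hochberg adjustment), so that the level fell to 48.0% of that of the controls. Fewer cells that express the gene and less of its RNA per cell cannot be told apart in bulk liver. The adjusted p in edgeR rose to 0.0662 without flox/flox replicate 2 and to 0.0521 without labelled replicate 1, and the log2 fold change stayed between -1.31 and -0.86 as each library was left out in turn.

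*Plin3* encodes perilipin 3, a coat protein made in most tissues that moves between the cytosol and small new droplets. The flox/flox livers had 51.0, 56.2, 67.4 and 62.0 CPM. The livers labelled hep-/- had 37.0, 32.9 and 40.0 CPM. The groups were apart and the labelled group was narrow, with its highest value well under the lowest control. The level fell from 59.2 ± 7.14 (SD, n = 4) in the controls to 36.6 ± 3.54 CPM (SD, n = 3) in the labelled group, a log2 fold change of -0.69 (SE 0.18, 95% interval -1.08 to -0.30, adjusted p = 0.0259 by edgeR with Benjamini-Hochberg adjustment). This call was kept without flox/flox replicate 1 or labelled replicate 3. It was lost without flox/flox replicates 2, 3 or 4 (adjusted p in edgeR of 0.0656, 0.0593 and 0.0591) and without labelled replicates 1 or 2 (0.0530 and 0.0729), with log2 fold changes of -0.77 to -0.62 over all 7 fits.

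*Plin4* encodes perilipin 4, a coat protein best known from adipocytes and muscle. Its level was 49.4, 36.7, 29.6 and 46.8 CPM in the flox/flox livers. It was 52.0, 98.4 and 79.5 CPM in the livers labelled hep-/-. Replicate 1 labelled hep-/- lay just above the highest control and the other 2 clearly above it. The level rose from 40.6 ± 9.15 (SD, n = 4) in the controls to 76.7 ± 23.3 CPM (SD, n = 3) in the labelled group, a log2 fold change of 0.92 (SE 0.25, 95% interval 0.37 to 1.46, adjusted p = 0.0303 by edgeR with Benjamini-Hochberg adjustment). On the deposited FPKM values, which are scaled by library total and not by TMM, the groups overlapped (4.54 to 8.02 against 6.68 to 15.2 FPKM) and limma gave an adjusted p of 0.0761 on log2(FPKM + 1). The adjusted p in edgeR was 0.0983 without flox/flox replicate 2, 0.0729 without flox/flox replicate 3, 0.0999 without labelled replicate 2 and 0.0649 without labelled replicate 3. Its exons share 17 of 5777 bases, or 0.294%, with *Hdgfl2* on the opposite strand in the GENCODE annotation of GRCm38.

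*Plin5* encodes perilipin 5, which links droplets to mitochondria in oxidative tissues. It had 78.0, 76.5, 107 and 67.8 CPM in the flox/flox livers and 56.3, 80.0 and 133 CPM in the livers labelled hep-/-. The labelled group spanned the whole control range, with replicate 3 the highest library and replicate 1 the lowest. The log2 fold change was 0.12 (SE 0.28, 95% interval -0.49 to 0.73, adjusted p = 0.791 by edgeR with Benjamini-Hochberg adjustment), and without labelled replicate 3 it was -0.28. *Plin1*, the adipocyte perilipin, had at most 1 count in any library and was not tested.

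**Figure D2:**
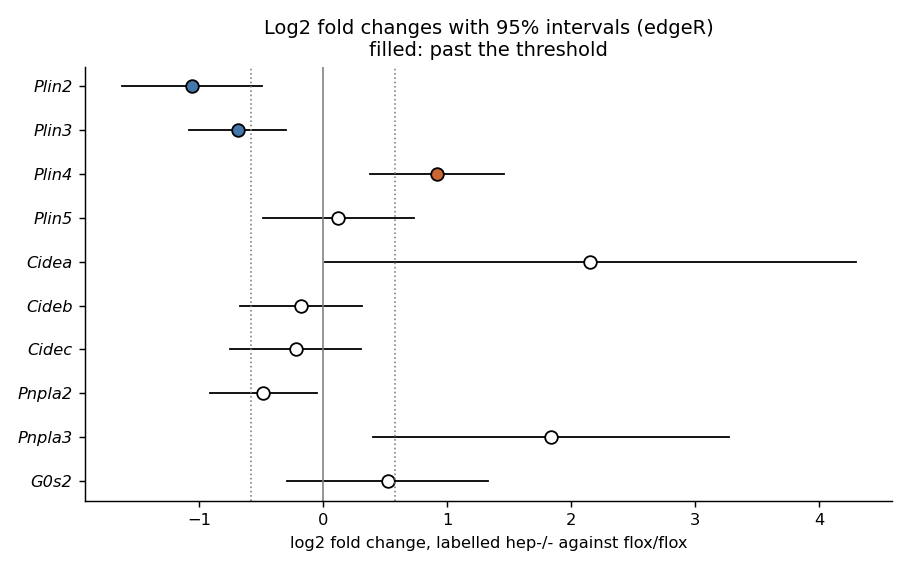
Log2 fold change (horizontal axis) of each gene, libraries labelled hep-/- against flox/flox, as a point with its 95% interval from edgeR, filled where the gene passed the threshold. The dotted lines are at a log2 fold change of 0.58 in either direction, and *Cidea* and *Pnpla3* have the widest intervals.

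Levels of different perilipins can be set side by side per transcript length, as FPKM. The summed FPKM of the 4 measured perilipins was 385, 416, 357 and 350 in the flox/flox livers and 172, 178 and 243 in the livers labelled hep-/-. The sum followed *Plin2*, which made up 79.8% ± 4.29 (SD, n = 4) of it in the former and 66.1% ± 6.95 (SD, n = 3) in the latter. The shares of *Plin4* were 1.60% ± 0.40 (SD, n = 4) and 5.49% ± 2.60 (SD, n = 3), and its range of 3.89% to 8.49% in the labelled group lay above that of 1.26% to 2.08% in the controls. The shares of *Plin5* were 11.0% ± 3.19 (SD, n = 4) and 20.1% ± 5.14 (SD, n = 3), with ranges that overlapped. *Plin3* took 7.61% ± 1.35 (SD, n = 4) and 8.33% ± 1.41 (SD, n = 3). These shares add up to the whole in each liver, so a smaller share of 1 perilipin makes those of the others larger, and they were not tested.

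**Figure D3:**
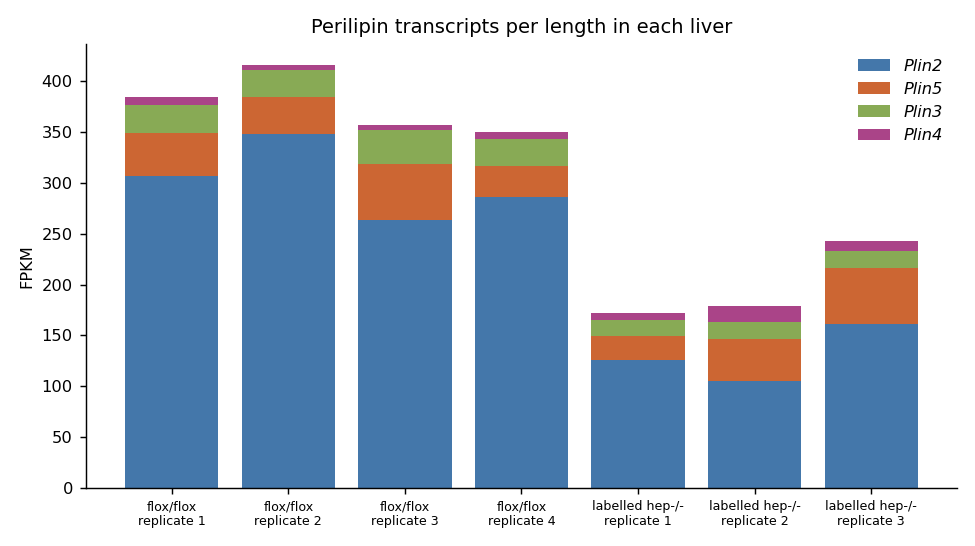
Stacked FPKM (vertical axis from 0) of *Plin2*, *Plin5*, *Plin3* and *Plin4* in each of the 7 livers. The 3 bars of livers labelled hep-/- end between 172 and 243 FPKM, below all 4 flox/flox bars, and the *Plin2* segment is the largest in every liver.

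Among the CIDE genes none passed the threshold. *Cideb*, whose product is abundant in hepatocytes and takes part in the lipidation of very low density lipoprotein, had 297, 297, 220 and 361 CPM in the flox/flox livers and 243, 221 and 315 CPM in the livers labelled hep-/-. The groups overlapped, with a log2 fold change of -0.18 (SE 0.22, 95% interval -0.67 to 0.31, adjusted p = 0.612 by edgeR with Benjamini-Hochberg adjustment). The value is uncertain, since 1136 of its 1488 exonic bases (76.3%) lie opposite *Nop9* in the GENCODE annotation of GRCm38 and the sources used here do not say whether counting used the strand. *Nop9* itself was at 17.1 ± 1.16 (SD, n = 4) in the controls and 16.6 ± 3.24 CPM (SD, n = 3) in the labelled group.

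*Cidec* encodes the CIDE protein that enlarges droplets in adipocytes and in steatotic liver. The flox/flox livers had 156, 180, 97.9 and 143 CPM and the livers labelled hep-/- had 111, 103 and 157 CPM. The labelled values lay inside the control range, with a log2 fold change of -0.22 (SE 0.24, 95% interval -0.75 to 0.31, adjusted p = 0.555 by edgeR with Benjamini-Hochberg adjustment). The interval includes a fall past the threshold, so the data do not show that the level was the same.

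*Cidea*, a CIDE gene of brown fat that steatotic hepatocytes can switch on, was near the detection limit. Its counts were 11, 15, 3 and 4 in the flox/flox libraries and 1, 13 and 71 in the libraries labelled hep-/-, where 3 counts correspond to 0.0690 to 0.0987 CPM. Only replicate 3 labelled hep-/- stood out, at 2.34 CPM. The log2 fold change was 2.15 (SE 0.98, 95% interval 0.01 to 4.29, adjusted p = 0.150 by edgeR with Benjamini-Hochberg adjustment), and it was 0.06 without that library.

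In FPKM, *Cideb* made up 75.3% ± 3.51 (SD, n = 4) of the CIDE transcripts in the controls and 75.8% ± 1.09 (SD, n = 3) in the labelled group, with *Cidec* at 24.7% ± 3.48 and 24.0% ± 0.81. The log2 ratio of *Cidec* to *Cideb* counts within a library was -1.04 ± 0.27 (SD, n = 4) against -1.08 ± 0.07 (SD, n = 3), a difference of -0.04 (two-sided exact permutation test, p = 0.829). This difference became 0.07 without flox/flox replicate 2.

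*Pnpla2* encodes adipose triglyceride lipase. The flox/flox livers had 237, 228, 196 and 196 CPM. The livers labelled hep-/- had 128, 148 and 183 CPM. The groups did not overlap, though labelled replicate 3 came close to the lower controls. The means were 214 ± 21.5 (SD, n = 4) in the controls and 153 ± 28.3 CPM (SD, n = 3) in the labelled group, with a log2 fold change of -0.48 (SE 0.20, 95% interval -0.92 to -0.05) and an adjusted p of 0.115 by edgeR with Benjamini-Hochberg adjustment, which missed the threshold. limma on log2(FPKM + 1) gave -0.61 with an adjusted p of 0.0340, which passed it. On that scale the median of all genes was 0.09 lower than in the edgeR fit over the same 10914 genes, and relative to this shift the log2 fold change of *Pnpla2* was -0.52.

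*Pnpla3* encodes a droplet protein related to *Pnpla2* with lipase and retinyl esterase activity. Its counts were 22, 12, 5 and 7 in the flox/flox libraries and 10, 54 and 33 in the libraries labelled hep-/-. Replicates 2 and 3 labelled hep-/- were above all controls and replicate 1 was among them. The levels of 0.280 ± 0.168 (SD, n = 4) in the controls and 1.01 ± 0.655 CPM (SD, n = 3) in the labelled group gave a log2 fold change of 1.84 (SE 0.66, 95% interval 0.40 to 3.27, adjusted p = 0.0776 by edgeR with Benjamini-Hochberg adjustment). DESeq2 gave 1.85 with an adjusted p of 0.0377, and edgeR without labelled replicate 1 gave 2.24 with an adjusted p of 0.0492. In the GENCODE annotation of GRCm38, 6.78% of its exonic bases are shared with *Gm49513* on the same strand.

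*G0s2* encodes the inhibitor of adipose triglyceride lipase. It had 103, 71.7, 65.4 and 165 CPM in the flox/flox livers and 234, 111 and 90.6 CPM in the livers labelled hep-/-. Replicate 1 labelled hep-/- was the highest library and the other 2 lay within the control range. The log2 fold change was 0.52 (SE 0.37, 95% interval -0.29 to 1.33, adjusted p = 0.354 by edgeR with Benjamini-Hochberg adjustment), and without labelled replicate 1 it was -0.02.

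Ratios within a library do not depend on the scaling between libraries. Of the 4 count ratios tested, the group values were apart for *Pnpla3* to *Pnpla2*, with a log2 ratio of -9.69 ± 0.72 (SD, n = 4) in the controls and -7.47 ± 1.03 (SD, n = 3) in the labelled group (exact permutation test, two-sided, p = 0.0286, which is the lowest value that 4 against 3 allows, and 0.114 after Benjamini-Hochberg adjustment over the 4 ratios). This ratio rests on low *Pnpla3* counts. Its difference between groups, 2.22, was 1.44 when FPKM values with 0.1 added to each replaced the counts. The log2 ratio of *Plin2* to *Plin5* was 3.88 ± 0.47 (SD, n = 4) and 2.73 ± 0.54 (SD, n = 3), with overlapping values (exact permutation p = 0.0857, adjusted 0.171). That of *G0s2* to *Pnpla2* was -1.18 ± 0.65 (SD, n = 4) and -0.19 ± 0.97 (SD, n = 3), also overlapping (exact permutation p = 0.143, adjusted 0.190). The difference of 0.99 in the last ratio was 0.45 without labelled replicate 1 and ranged up to 1.40 as other libraries were left out. None of the 4 ratios passed after adjustment, and the smallest p allowed by the design could not pass it alone.

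Per transcript length, *Plin2* led the 10 genes in flox/flox livers at 301 ± 36.0 FPKM (SD, n = 4), followed by *Cideb* at 258 ± 40.7 FPKM and *G0s2* at 123 ± 47.5 FPKM. The ranges of *Plin2* and *Cideb* overlapped there, and *G0s2* lay below both. In livers labelled hep-/-, *Cideb* led at 208 ± 24.7 FPKM (SD, n = 3), followed by *G0s2* at 162 ± 80.0 FPKM and *Plin2* at 131 ± 28.2 FPKM, and each overlapped the next. The ratio of *Plin2* to *Cideb* in FPKM, chosen after its values were seen, was 1.07, 1.37, 1.31 and 0.997 in flox/flox livers and 0.671, 0.519 and 0.684 in livers labelled hep-/-. The lower part of the order was the same in both groups, from *Cidec*, *Pnpla2*, *Plin5*, *Plin3* and *Plin4* to *Cidea* and *Pnpla3*. *Cidec* and *Pnpla2* overlapped in both groups, as did *Cidea* and *Pnpla3*, which were below 1 FPKM on average. *Plin5* overlapped *Plin3* in flox/flox livers and *Pnpla2* in livers labelled hep-/-.

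**Figure D4:**
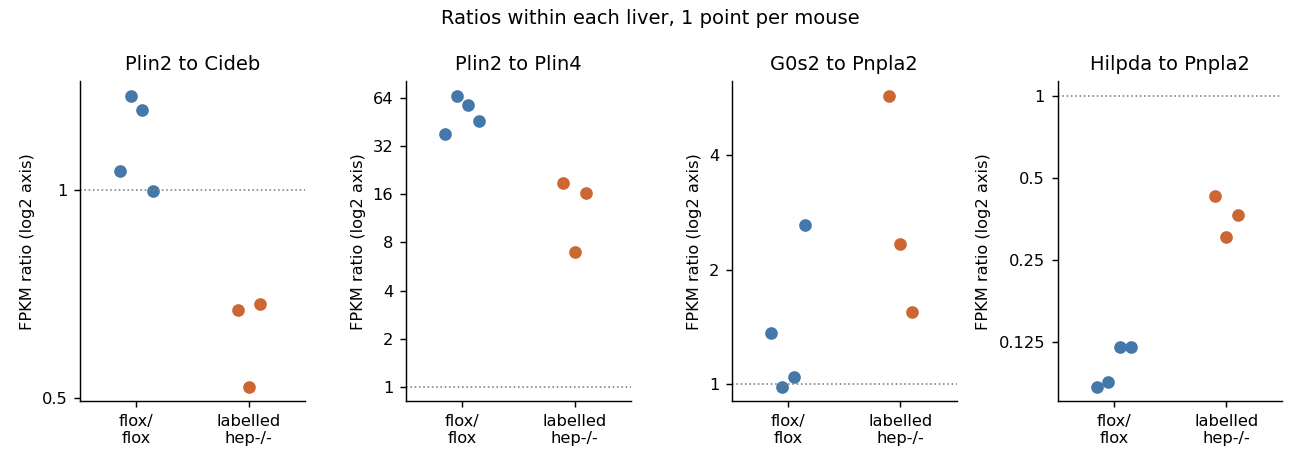
FPKM ratio (vertical log2 axes) of 4 gene pairs in each liver, 1 point per mouse, with a dotted line at 1. The pairs were chosen after their values were seen, the groups are apart for *Plin2* to *Cideb*, *Plin2* to *Plin4* and *Hilpda* to *Pnpla2*, and they overlap for *G0s2* to *Pnpla2*.

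The other genes of the pathway were followed in 5 lists. Of their 68 genes 65 were tested, and 11 were lower and 3 higher past the threshold, with a median log2 fold change of -0.18 beside 0.02 over all tested genes. Of all tested genes 15.8% passed, 7.83% lower and 8.00% higher. The counts were 9 lower and 3 higher without labelled replicate 3. They fell to 6 genes in all without flox/flox replicate 2, to 9 without flox/flox replicate 4 or labelled replicate 1, and to 8 without labelled replicate 2. Over all genes the calls were 2404 with every library and 885, 1552, 1818 and 1199 in these 4 fits. Of the 14 genes, *Pcyt1a*, *Hilpda*, *Lipa*, *Rxra*, *Cd36* and *Ehhadh* passed in all 7 fits that left out a library.

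In the list of droplet formation 3 of 10 genes were lower and none higher (7.83% lower and 8.00% higher over all tested genes), with a median of -0.25. *Fitm2*, whose product helps droplets bud from the endoplasmic reticulum, fell from 26.0 ± 6.76 (SD, n = 4) in the controls to 9.74 ± 6.08 CPM (SD, n = 3) in the labelled group, with a log2 fold change of -1.42 (adjusted p = 0.0245, edgeR with Benjamini-Hochberg adjustment). *Dgat2*, which makes triglyceride, fell from 314 ± 20.8 to 179 ± 42.8 CPM, with a log2 fold change of -0.81 and an adjusted p of 0.0266 in edgeR. *Pcyt1a*, the enzyme that sets the rate of phosphatidylcholine synthesis and so supplies the droplet surface, fell from 88.8 ± 10.2 to 46.1 ± 12.0 CPM, with a log2 fold change of -0.95 and an adjusted p of 0.0168. The values of all 3 genes were lower in each labelled hep-/- liver than in any control. The *Fitm2* call was lost without flox/flox replicates 2 or 3 or labelled replicates 1 or 2 (adjusted p in edgeR of 0.0587 to 0.0668, log2 fold changes of -1.39 to -1.16). Without labelled replicate 3 its log2 fold change was -2.07 and the call was kept. The *Dgat2* call was lost without any library except flox/flox replicate 1 and labelled replicate 3 (0.0511 to 0.0682). *Agpat2* and *Gpat4*, which add fatty acids to the glycerol backbone, had log2 fold changes of -0.05 and -0.41 and did not pass.

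Of the lipolysis cofactors and other hydrolases 11 of 13 were tested, and 1 was lower and 1 higher (7.83% lower and 8.00% higher over all tested genes), with a median of -0.32. *Hilpda*, a small droplet protein that inhibits adipose triglyceride lipase as G0S2 does, had 8.48, 8.48, 9.84 and 9.86 CPM in the flox/flox livers. It had 23.0, 18.8 and 28.1 CPM in the livers labelled hep-/-. The control values were tight and each labelled liver was far above them. The level rose from 9.17 ± 0.789 (SD, n = 4) in the controls to 23.3 ± 4.68 CPM (SD, n = 3) in the labelled group, a log2 fold change of 1.34 (SE 0.20, adjusted p = 0.00361 by edgeR with Benjamini-Hochberg adjustment). In FPKM the ratio of *Hilpda* to *Pnpla2* was 0.0853 to 0.120 in flox/flox livers and 0.302 to 0.429 in livers labelled hep-/-. *Lipa*, the acid lipase of lysosomes, fell from 272 ± 80.0 to 103 ± 21.6 CPM, with a log2 fold change of -1.40 and an adjusted p of 0.00816 in edgeR. *Aadac* and *Ces1d*, hydrolases of the endoplasmic reticulum, had log2 fold changes of -0.02 and -0.34 and did not pass. *Abhd5*, the activator of adipose triglyceride lipase, which was named after its values were seen, had a log2 fold change of -0.32 with an adjusted p of 0.377 in edgeR.

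Of 15 other droplet surface proteins 14 were tested, and *Osbpl2* alone passed (7.83% of all tested genes were lower), with a log2 fold change of -0.62 (adjusted p = 0.0330, edgeR with Benjamini-Hochberg adjustment). Its call was kept without flox/flox replicate 1 and lost in each of the other 6 fits that left out a library (adjusted p in edgeR of 0.0593 to 0.114). The median of the list was -0.20. *Mettl7b* and *Hsd17b13*, the most abundant genes of the list per length, had log2 fold changes of -0.10 and -0.34 and did not pass.

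Of 13 transcription regulators 2 were lower and 2 higher (7.83% lower and 8.00% higher over all tested genes), with a median of -0.02. *Pparg*, the nuclear receptor that drives droplet genes in steatotic liver, had 16.6, 28.7, 17.4 and 23.3 CPM in the flox/flox livers and 13.3, 8.41 and 12.2 CPM in the livers labelled hep-/-. The groups were apart, with labelled replicate 2 the lowest. The log2 fold change was -0.92 (SE 0.25, adjusted p = 0.0311 by edgeR with Benjamini-Hochberg adjustment), and the call was lost without flox/flox replicates 2 or 4 or labelled replicates 2 or 3 (adjusted p in edgeR of 0.0557 to 0.0997). *Rxra*, its partner receptor, fell from 326 ± 40.0 to 147 ± 17.6 CPM, with a log2 fold change of -1.15 and an adjusted p of 0.00605.

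*Mlxipl*, the carbohydrate response factor, had 109, 48.5, 26.6 and 74.1 CPM in the flox/flox livers and 134, 189 and 187 CPM in the livers labelled hep-/-. The controls were spread widely but stayed below the labelled group, and the log2 fold change was 1.40 (SE 0.37, adjusted p = 0.0287 by edgeR with Benjamini-Hochberg adjustment). The call was lost without flox/flox replicates 2 or 4 or labelled replicates 2 or 3 (adjusted p in edgeR of 0.0524 to 0.0932). *Cebpb*, a factor of adipocyte differentiation and of the acute phase, rose from 162 ± 30.8 to 310 ± 64.4 CPM, with a log2 fold change of 0.94 and an adjusted p of 0.0184, and was lost without flox/flox replicate 2 (0.0676) or labelled replicate 1 (0.0594). *Creb3l3* and *Cebpa* had log2 fold changes of -0.10 and -0.67 and did not pass.

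Of 17 further PPAR target genes 4 were lower and none higher (7.83% lower and 8.00% higher over all tested genes), with a median of -0.18. *Cyp4a14*, a fatty acid hydroxylase with near-identical relatives that may share its reads, was lower by a log2 fold change of -0.72 (adjusted p = 0.0429, edgeR with Benjamini-Hochberg adjustment). Its call was kept without labelled replicate 3 and lost in each of the other 6 fits that left out a library (0.0637 to 0.125). It was also lost in edgeR when all genes with at least 1 count in any library were tested (adjusted p of 0.0951) and with the replicate number as a block (0.209). *Ehhadh*, *Cd36* and *Cpt1a*, of fatty acid oxidation and uptake, fell by 1.66, 1.32 and 0.87 on the log2 scale, the last with its call lost without flox/flox replicate 2 (adjusted p in edgeR of 0.0775), labelled replicate 1 (0.0545) or labelled replicate 2 (0.0582). *Fabp1*, the fatty acid binding protein of hepatocytes and the most abundant gene of the list per length, had a log2 fold change of 0.03 and did not pass.

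**Figure D5:**
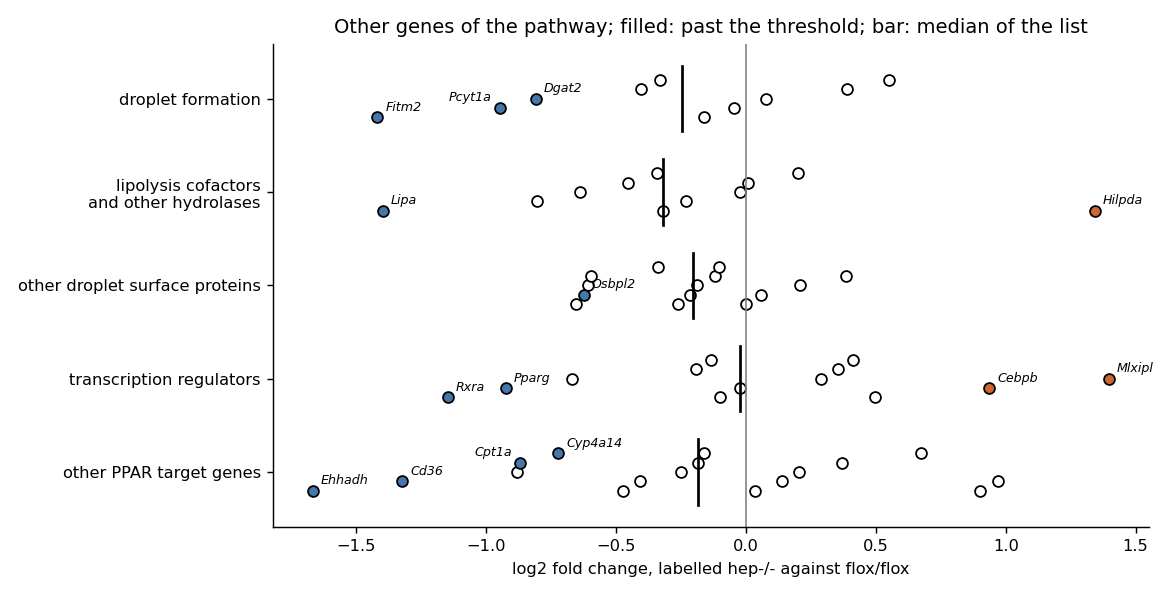
Log2 fold change (horizontal axis) of each tested gene in the 5 lists, libraries labelled hep-/- against flox/flox, 1 point per gene, filled blue where lower and orange where higher past the threshold, with a vertical bar at the median of each list. *Ehhadh*, *Fitm2* and *Lipa* lie farthest to the left and *Mlxipl* and *Hilpda* farthest to the right.

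Other cell types of the liver make some of these transcripts, macrophages *Plin2* and *Lipa* among them. Of 8 macrophage markers 4 were lower past the threshold, *Gpnmb*, *Adgre1*, *Cd68* and *Trem2*, with log2 fold changes of -1.72, -1.88, -1.15 and -0.83, and none was higher (7.83% lower and 8.00% higher over all tested genes). The other markers did not pass, with log2 fold changes of -0.77 for *Csf1r*, -0.66 for *Timd4*, -0.47 for *Clec4f* and 0.37 for *Ptprc*. The summed level of the 8 was 814 to 1721 CPM in flox/flox livers and 449 to 532 CPM in livers labelled hep-/- (two-sided exact permutation test, p = 0.0571, and 0.229 after Benjamini-Hochberg adjustment over 8 measures). In the controls most of this sum was *Gpnmb*, with a mean of 709 CPM beside 1171 CPM for the sum. In the labelled group these means were 215 and 502 CPM. The part of macrophages in the values of *Plin2*, *Plin3* and *Lipa* was not tested. Of the endothelial markers 1 of 4, *Kdr*, was lower, with a log2 fold change of -1.33 beside -0.87 for *Clec4g*, -0.16 for *Pecam1* and 0.45 for *Stab2*, which did not pass. None of the 8 stellate cell or 4 cholangiocyte markers passed.

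Adipocytes and muscle make *Plin4*. Of 9 adipocyte markers 8 were in the table and 3 tested, none of which passed, while 15.8% of all tested genes did. The summed level of the 8 was 35.5 to 78.5 CPM in flox/flox livers and 53.8 to 86.1 CPM in livers labelled hep-/-. Most of this was *Fabp4*. *Adrb3*, an adrenergic receptor of fat cells, had 5.27, 2.01, 0.914 and 7.32 CPM in flox/flox livers and 9.06, 13.6 and 9.77 CPM in livers labelled hep-/-, with groups apart and a log2 fold change of 1.48 (adjusted p = 0.0772 by edgeR with Benjamini-Hochberg adjustment). *Slc2a4* and *Fabp4* had log2 fold changes of 1.74 and 0.14 with adjusted p-values of 0.167 and 0.779 in edgeR. The level of *Slc2a4* was low, at 0.0251 to 0.513 CPM over the libraries, and its groups overlapped. The median of the 3 tested markers, 1.48, is the value of *Adrb3*, and the part of adipocytes in the *Plin4* value was not tested. *Adipoq*, which defines adipocytes, had at most 0.0251 CPM and *Plin1* at most 0.0329 CPM in any library. The 6 skeletal muscle markers in the table summed to at most 0.664 CPM. With the mitochondrially encoded genes, whose share was higher in the labelled group, left out before scaling, *Plin2*, *Plin3* and *Plin4* had log2 fold changes of -1.06, -0.69 and 0.92 and all 3 passed.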

How the data were processed

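Total RNA of 7 livers was extracted with TRIzol and made into libraries with a VAHTS Universal V6 kit. The authors deposited whole-number gene counts, not normalized, and a second table with FPKM for the same 23347 genes. The submitters' processing notes name fastp, HISAT2, HTSeq, DESeq2 and R 3.2.0 and the build GRCm39. For 13374 genes with at least 10 counts in every library the deposited FPKM equalled the count divided by a fixed gene length and the library's total to within 6.14e-06 percent. The file columns were matched to samples by library name, and groups came from the sample labels. The sample labels do not pair the mice.

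Genes were kept by filterByExpr (minimum count 10, minimum total 15), counts were normalized by TMM, and groups were compared by the quasi-likelihood F-test of edgeR 4.0.16 (R 4.3.3) with Benjamini-Hochberg adjustment over 15179 genes. Intervals were derived from its F statistic. For single values the test was an exact two-sided permutation of the means, and count ratios had 0.5 added to each count. Thresholds follow the study. The limit that a count of 0 allows, 3 counts, corresponds to 0.0690 to 0.0987 CPM. The edgeR fit of all 7 libraries was first tested on simulated counts.

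The 10 genes and all lists were chosen with earlier results of these data known. The text names the 10 genes, *B4galt1*, up to 5 called genes and the 2 most abundant uncalled genes by mean FPKM of each list, called marker genes, and the 3 genes nearest in pattern to *Plin2*, *Cidec* and *Pnpla2*. A pair of genes under this rule is not reported here. *Abhd5*, *Nop9*, *Hdgfl2* and *Gm49513* lie outside the rule and were named after their values were seen. The same holds for the adipocyte markers *Adrb3*, *Slc2a4*, *Fabp4*, *Adipoq* and *Plin1* and for the uncalled hepatocyte, macrophage and endothelial markers. Alternatives were RLE and upper-quartile scaling, TMM without mitochondrially encoded genes, DESeq2 1.42.0, 2 other filters, limma 3.58.1 on FPKM after adding 1 or 0.1 and taking log2 (genes reaching FPKM 1 in 3 libraries or more), no fold threshold, the replicate number as a block, and each library left out. Exon overlaps came from GENCODE on GRCm38 and promoters from RefSeq on GRCm38.p6. Chow-fed mice were not analysed here.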

Additional observations from a re-analysis of the deposited data

How the results depend on the processing

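Normalization, mitochondrial genes, filters on counts and the fold threshold left the calls of *Plin2*, *Plin3* and *Plin4* as they were, and DESeq2 added *Pnpla3*. The number of genes called was 885 to 2396 as each library was left out, that of the 10 droplet genes 0 to 3 and that of the other pathway genes 6 to 15. limma on log2(FPKM + 1) and on log2(FPKM + 0.1) called 22 pathway genes each in place of 14, and among the droplet genes *Plin2*, *Plin3* and *Pnpla2*. On these scales 24.5% and 23.6% of all calls were higher, against 50.5% in edgeR, and the median of all genes was lower by 0.09 and 0.13. The log2 fold change of *B4galt1* was -0.67 and -0.73 there and passed (adjusted p in limma 0.0389 and 0.0382), and it was -0.96 to -0.30 with libraries left out. That of *Plin5* turned to -0.0687 and -0.0716 there and was -0.28 to 0.35 with libraries left out (below 0 without labelled replicate 3), that of *G0s2* was -0.0174 to 0.86 (below 0 without labelled replicate 1), and the difference in the *Cidec* to *Cideb* log2 ratio was -0.14 to 0.0656 (above 0 without flox/flox replicate 2). The cause was not tested.

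With the replicate number as a block, edgeR called 1267 genes, 0 droplet genes (4 at an unadjusted p under 0.05) and 9 pathway genes, and *Plin5* was at -0.0324. Same-numbered libraries did not deviate together from their group means (correlations of -0.34, -0.03 and 0.08). Differently numbered libraries of the 2 groups had correlations of -0.32 to 0.49. The labels give no pairing, and these correlations cannot decide whether there was one.

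With 4 and 3 mice a p of 0.0286 is the smallest an exact permutation test can give, and at the counts of *Cidea* and *Pnpla3* differences of a few counts were not detectable. In edgeR the p-values set the difference between groups against the spread between these mice, moderated over all tested genes. Those of the permutation test set it against relabelled mice.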

Other observations

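The genes whose normalised level followed that of *Plin2* most closely over the 7 livers, by the Euclidean distance between z-scored log2 CPM among 7494 genes at or above the median level, were *Ldha* (0.203), *Clpb* (0.243) and *Abhd2* (0.275), where the median distance was 2.93. *Ldha*, lactate dehydrogenase A, had 1163, 1659, 1149 and 1386 CPM in the flox/flox livers and 543, 321 and 791 CPM in the livers labelled *B4galt1* hep-/-. Its highest and lowest libraries were those of *Plin2*. Among the 3 nearest to *Cidec* were *Diablo* (0.292) and *Hs6st1* (0.734), with a median distance of 3.25. Nearest to *Pnpla2* were *H6pd* (0.449), *Ceacam1* (0.490) and *Fads6* (0.501), with a median distance of 3.18. The points share their libraries and the difference between groups, and these distances are a description without a test.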
